A study of Homo sapiens with 6 samples.

Results

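The 10 genes described here encode the DNA-binding subunits of NF-kB (NFKB1, NFKB2, RELA and RELB), its inhibitor IkB-alpha (NFKBIA) and 5 genes that NF-kB induces or that act on its pathway (TNFAIP3, BIRC2, BIRC3, ICAM1 and TNFAIP2). They were taken by exact gene symbol from the count tables of both cell lines, where each had 1 row among 37493 Ensembl identifiers. Expression was measured by RNA sequencing in OE33 and Eso26, human cell lines from esophageal adenocarcinoma. The groups are OE33 cells with siPPARG, an siRNA against the nuclear receptor gene PPARG, OE33 control cells with a non-silencing siRNA, Eso26 cells with siPPARG and Eso26 control cells with the non-silencing siRNA. All cells were transfected with Lipofectamine RNAiMAX. OE33 was grown in DMEM and Eso26 in RPMI-1640, each with serum and antibiotics, so that line and medium cannot be told apart. Each group has 1 column of counts, treated here as 1 library. The series' design text speaks of triplicates, and the sources used here do not say whether a column sums several libraries. They likewise leave out the siRNA sequences and the time after transfection.

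NF-kB is a family of dimeric transcription factors held in the cytoplasm by IkB proteins until a signal from a receptor such as that for TNF, interleukin 1 or a Toll-like ligand leads to IkB kinase activity and destruction of IkB. In the canonical arm the dimer is mainly RELA with the p50 product of NFKB1; in the non-canonical arm the kinase NIK drives processing of the NFKB2 product p100 to p52, which pairs with RELB. Released dimers induce genes for inflammation, adhesion and survival, among them NFKBIA and TNFAIP3 themselves, whose products shut the pathway down again. In gastrointestinal epithelium the pathway responds to microbes and cytokines, and it has long been linked to reflux injury and cancer of the esophagus.

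Knockdown of the targeted gene was plain in OE33 and not detectable in Eso26. PPARG (ENSG00000132170) had 313 counts in OE33 siPPARG, against 2156 in OE33 control, 7.37-fold lower. In Eso26 it had 201 counts in the library labelled siPPARG, against 259 in control, a ratio of 0.843 whose 95% counting interval (0.698 to 1.02) includes 1. Every direction given for Eso26 therefore refers to the library labelled siPPARG. Library totals ran from 16866996 to 23019840 counts. The 5 epithelial markers listed for this report (EPCAM, CDH1, KRT8, KRT18, KRT19) were present in every library, summing to 4672 to 8592 CPM (counts after scaling for library size), while endothelial markers summed to 0.166 to 3.98 CPM and fibroblast markers to 3.60 to 8.34 CPM. Immune markers summed to 5.86 and 5.67 CPM in OE33 siPPARG and control, and to 25.9 CPM in each Eso26 library, nearly all of it LYZ, with CD3E and MS4A1 at 0 throughout.

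The promoters of the 3 genes that stood past 1.5-fold after siPPARG in a line (TNFAIP3 and ICAM1 in OE33, BIRC3 in Eso26), and of NFKB2, the subunit gene that differed most between the lines, are shown because NF-kB is known to act on its target genes through kappa-B elements in DNA. Each window runs from 250 bases before to 50 bases after a gene's start, 5′ to 3′ on the gene's strand, from RefSeq on GRCh38.p14; the counts themselves were made on another build, hg19. Capitals mark matches, on either strand, to the 10-base kappa-B consensus or to GGAANTTCC; the second motif was added after the sequences were read, overlaps the first where both match, and covers the known kappa-B site of ICAM1.
TNFAIP3: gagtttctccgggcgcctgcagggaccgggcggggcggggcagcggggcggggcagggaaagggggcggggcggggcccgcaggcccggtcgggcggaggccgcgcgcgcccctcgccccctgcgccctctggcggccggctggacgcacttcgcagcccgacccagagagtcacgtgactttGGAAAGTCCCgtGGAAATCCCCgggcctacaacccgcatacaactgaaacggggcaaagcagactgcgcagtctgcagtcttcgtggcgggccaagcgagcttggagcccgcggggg
ICAM1: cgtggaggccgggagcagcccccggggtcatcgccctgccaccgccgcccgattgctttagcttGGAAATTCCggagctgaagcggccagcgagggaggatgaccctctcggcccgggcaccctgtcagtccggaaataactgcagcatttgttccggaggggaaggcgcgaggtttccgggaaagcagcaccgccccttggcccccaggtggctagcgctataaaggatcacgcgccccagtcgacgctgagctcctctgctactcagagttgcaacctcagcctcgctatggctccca
BIRC3: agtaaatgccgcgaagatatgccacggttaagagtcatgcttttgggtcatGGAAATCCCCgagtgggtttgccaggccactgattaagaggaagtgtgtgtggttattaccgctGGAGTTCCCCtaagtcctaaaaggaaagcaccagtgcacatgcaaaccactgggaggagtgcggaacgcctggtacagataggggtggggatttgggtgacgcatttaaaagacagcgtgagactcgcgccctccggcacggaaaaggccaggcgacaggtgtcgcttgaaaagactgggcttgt
NFKB2: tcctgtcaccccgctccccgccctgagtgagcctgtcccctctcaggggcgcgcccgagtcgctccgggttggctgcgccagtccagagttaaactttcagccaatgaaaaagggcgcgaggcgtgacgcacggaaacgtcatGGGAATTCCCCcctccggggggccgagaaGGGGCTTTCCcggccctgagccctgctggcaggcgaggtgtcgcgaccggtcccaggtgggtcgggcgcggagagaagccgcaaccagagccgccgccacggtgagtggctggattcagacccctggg
The TNFAIP3 window lies at chr6:137867009-137867308 on the plus strand, and the ICAM1 window at chr19:10270870-10271169, also plus. The BIRC3 window lies at chr11:102317234-102317533 and the NFKB2 window at chr10:102394328-102394627, both plus. NFKB2 has 3 windows in the table, for 3 starts, and the one shown holds 3 matches to the kappa-B consensus, of which 2 overlap.

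Of the 10 genes, 9 had promoter windows, 14 in all; RELB was the gene with none. The kappa-B consensus was found in windows of 5 of them, NFKB1, NFKB2, NFKBIA, TNFAIP3 and BIRC3, in 6 of the 14 windows, against 11.3% of all 35116 promoter windows of the same length. GGAANTTCC was found in windows of NFKB1, NFKBIA and ICAM1, in 3 of the 14 windows, against 0.965% of all windows. Because that motif was added after these sequences were read, no excess over all windows can be drawn from it. In TNFAIP3 the matches were 2 kappa-B sequences at bases -67 to -58 and -55 to -46 from the start. BIRC3 held its 2 matches further out, at -199 to -190 and -135 to -126, and ICAM1 its GGAANTTCC at -186 to -178. The windows of RELA, BIRC2 and TNFAIP2 held neither motif, which says only that these letters are not in those windows. A match is a description of the sequence and not evidence of binding.

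In OE33, TNFAIP3 and ICAM1 were higher in siPPARG, past 1.5-fold, and the subunit genes were close to control. TNFAIP3 and ICAM1 are 2 of 10 genes past that threshold in the higher direction, where 3.26% of the 10527 genes kept at 5 CPM or more stood; 0 of 10 were past it in the lower direction, against 2.38%. In either direction this makes 2 of 10, against 5.64%. With 1 library per condition there is no test within a line, and the intervals that follow hold counting error alone: how far separate cultures would vary is not in them. RNA per cell and the share of cells that express a gene cannot be told apart in these bulk libraries.

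Among the subunits in OE33, RELB, the partner of p52 in the non-canonical arm, stood highest against control, with 529 counts in siPPARG and 414 in control, 1.19-fold (interval 1.05 to 1.36). NFKB2, which encodes p100, had 3171 counts in siPPARG and 2756 in control (1.08-fold, interval 1.02 to 1.13). RELA, the main activating subunit, had 3313 counts in siPPARG and 2869 in control (1.08-fold, interval 1.03 to 1.14). These 3 genes were slightly higher in siPPARG, by less than 1.5-fold. NFKB1, which encodes p105 and p50, had 1318 counts in siPPARG and 1253 in control, a ratio of 0.983 whose interval (0.910 to 1.06) includes 1.

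The 2 feedback inhibitors did not move alike in OE33. TNFAIP3, which encodes A20, a ubiquitin-editing enzyme that turns off signalling upstream of IkB kinase, had 10690 counts (590.5 CPM) in siPPARG, against 5428 (320.7 CPM) in control, 1.84-fold higher (interval 1.78 to 1.90). NFKBIA, which encodes the IkB-alpha that retains NF-kB in the cytoplasm, had 4510 counts in siPPARG and 4076 in control, a ratio of 1.03 whose interval (0.991 to 1.08) includes 1. The interval of NFKBIA therefore lies far below that of TNFAIP3.

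The inhibitor of apoptosis genes BIRC2 and BIRC3 encode cIAP1 and cIAP2, ubiquitin ligases at the TNF receptor that also keep NIK low. BIRC2 had 3022 counts in OE33 siPPARG and 2466 in control (1.15-fold, interval 1.09 to 1.21), and BIRC3 had 7085 in siPPARG and 6032 in control (1.10-fold, interval 1.06 to 1.14). Both were higher in OE33 siPPARG by less than 1.5-fold. ICAM1, an adhesion molecule for leukocytes that NF-kB and interferon-gamma signalling both induce, had 1617 counts (89.3 CPM) in siPPARG, against 927 (54.8 CPM) in control, 1.63-fold higher (interval 1.503 to 1.77). TNFAIP2, a TNF-induced gene of membrane protrusions, had 7504 counts in siPPARG and 7063 in control, a ratio of 0.993 (interval 0.961 to 1.03); its log2 fold of -0.01 became 0.01 with DESeq2's size factors. ICAM1 was thus high in siPPARG while TNFAIP2, likewise inducible by TNF, was level.

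Over the 10 genes in OE33, 8 had a log2 fold above 0 and 2 below, against 48.7% and 51.3% of all kept genes. Their counting interval lay above 1 for 7 genes, against 24.8%, and below 1 for 0, against 25.8%; genes with many counts have narrow intervals. The median log2 fold was 0.12, against -0.01 over all kept genes. A list of 16 interferon-response genes made for this report (among them IFIT1, MX1 and OAS1) was read in the same libraries. It was chosen with earlier results of these data known, so its shares are a description and not a test. Of its 15 kept genes, 14 were past 1.5-fold higher, against 3.26% of all kept genes. The 15 log2 folds ran from 0.19 to 2.24, with a median of 1.53. TNFAIP3 and ICAM1 are genes that pathways other than NF-kB can also induce. The part of the interferon genes in the values of TNFAIP3 and ICAM1 was not tested. The controls carried a non-silencing siRNA, given with the same transfection reagent. Loss of PPARG and any effect of the siPPARG sequence itself cannot be told apart.

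**Figure D1:**
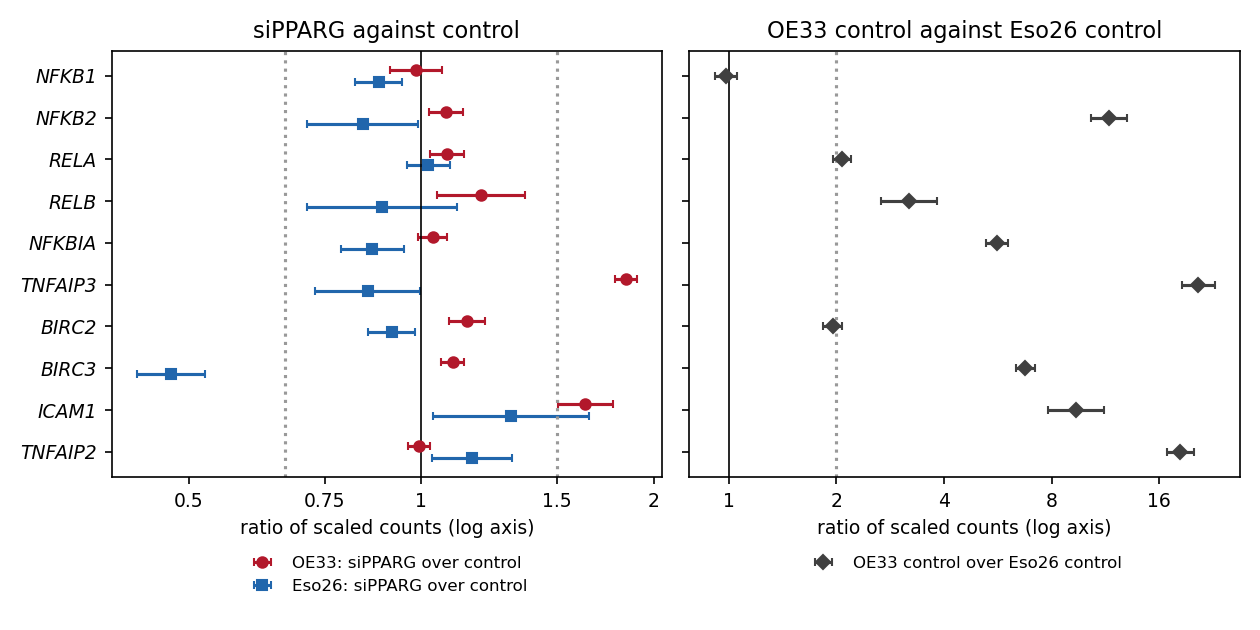
Left, ratio of siPPARG to control for each of the 10 genes in OE33 (red circles) and Eso26 (blue squares); right, ratio of OE33 control to Eso26 control (diamonds). Both x axes are log axes without units, bars are 95% counting intervals, and dotted lines mark 1.5-fold (left) and 2-fold (right). TNFAIP3 and ICAM1 in OE33 and BIRC3 in Eso26 are the points past 1.5-fold, and 8 of the 10 diamonds lie past 2-fold.

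In Eso26, BIRC3 was lower in the library labelled siPPARG and the other 9 genes were within 1.5-fold of control. BIRC3 had 545 counts (26.1 CPM) in siPPARG, against 1250 (55.1 CPM) in control, 2.11-fold lower (ratio 0.474, interval 0.428 to 0.524). It is the 1 gene of 10 past 1.5-fold in the lower direction, where 1.15% of the 10443 kept genes stood; 0 of 10 were past it in the higher direction, against 1.25%. In either direction this makes 1 of 10, against 2.4%. BIRC2, the neighbour and close relative of BIRC3, had 1490 counts in siPPARG and 1770 in control, a ratio of 0.915 (interval 0.853 to 0.981). BIRC2 was thus also lower, by far less than BIRC3, with the reservation that how reads common to paralogs were counted is not known. Whether the interval of BIRC2 stays below 1 depends on the scaling. RefSeq places BIRC3 and BIRC2 side by side on chromosome 11, with no other protein-coding gene between them.

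The subunit genes in Eso26 siPPARG were level or slightly lower. NFKB2 had 258 counts in siPPARG and 334 in control (ratio 0.840, interval 0.711 to 0.991), and NFKB1 had 1449 in siPPARG and 1788 in control (ratio 0.881, interval 0.821 to 0.945). RELB had 149 counts in siPPARG and 182 in control, a ratio of 0.890 whose interval (0.712 to 1.11) includes 1. RELA had 1822 counts in siPPARG and 1939 in control, a ratio of 1.02 (interval 0.958 to 1.09). RELB, at 7.14 and 8.03 CPM in siPPARG and control, is among the genes with the fewest counts here, and a difference of the size seen for NFKB1 was not detectable for it at this depth.

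Both feedback inhibitors were lower in Eso26 siPPARG by less than 1.5-fold. NFKBIA had 807 counts in siPPARG and 1015 in control (ratio 0.864, interval 0.787 to 0.949), and TNFAIP3 had 290 in siPPARG and 370 in control (ratio 0.852, interval 0.728 to 0.996). ICAM1 and TNFAIP2 went the other way. ICAM1 had 167 counts (8.01 CPM) in siPPARG and 139 (6.13 CPM) in control (1.31-fold, interval 1.04 to 1.65), and TNFAIP2 had 578 in siPPARG and 540 in control (1.16-fold, interval 1.03 to 1.31). Over the 10 genes in Eso26, 7 had a log2 fold below 0 and 3 above, against 51.4% and 48.6% of all kept genes. The interval lay below 1 for 6 genes, against 29.6%, and above 1 for 2, against 23.6%. These intervals hold the scaling fixed, and library totals alone shifted log2 folds in Eso26 up by a median of 0.04. The upper ends for NFKB2 (0.991), TNFAIP3 (0.996) and BIRC2 (0.981) lie close enough to 1 for their side of 1 to depend on the scaling. The log2 folds of these genes stayed below 0 under each scaling. The median log2 fold was -0.17, against -0.01 over all kept genes. Of the interferon-response list, 0 of 14 kept genes were past 1.5-fold in Eso26, against 2.4% of all kept genes, with a median log2 fold of -0.07.

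Set side by side, 9 of the 10 genes had a higher siPPARG log2 fold in OE33 than in Eso26, where 49.4% of the 9588 genes kept in both lines did. The widest gaps were those of BIRC3, with log2 folds of 0.13 in OE33 and -1.07 in Eso26, and TNFAIP3, with 0.88 in OE33 and -0.23 in Eso26. For 6 genes, NFKB2, RELB, NFKBIA, TNFAIP3, BIRC2 and BIRC3, the log2 fold was above 0 in OE33 and below 0 in Eso26, a combination seen in 24.5% of genes kept in both lines. Counting TNFAIP2, whose signs were the other way round, 7 of the 10 had opposite signs, against 49.0% of those genes. ICAM1, at 0.70 in OE33 and 0.38 in Eso26, was higher in siPPARG in both lines. RELA had log2 folds of 0.11 in OE33 and 0.03 in Eso26, where the interval of its ratio (0.958 to 1.09) includes 1. No test of these gaps is possible, since each condition has 1 library and none would be left to measure spread.

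**Figure D2:**
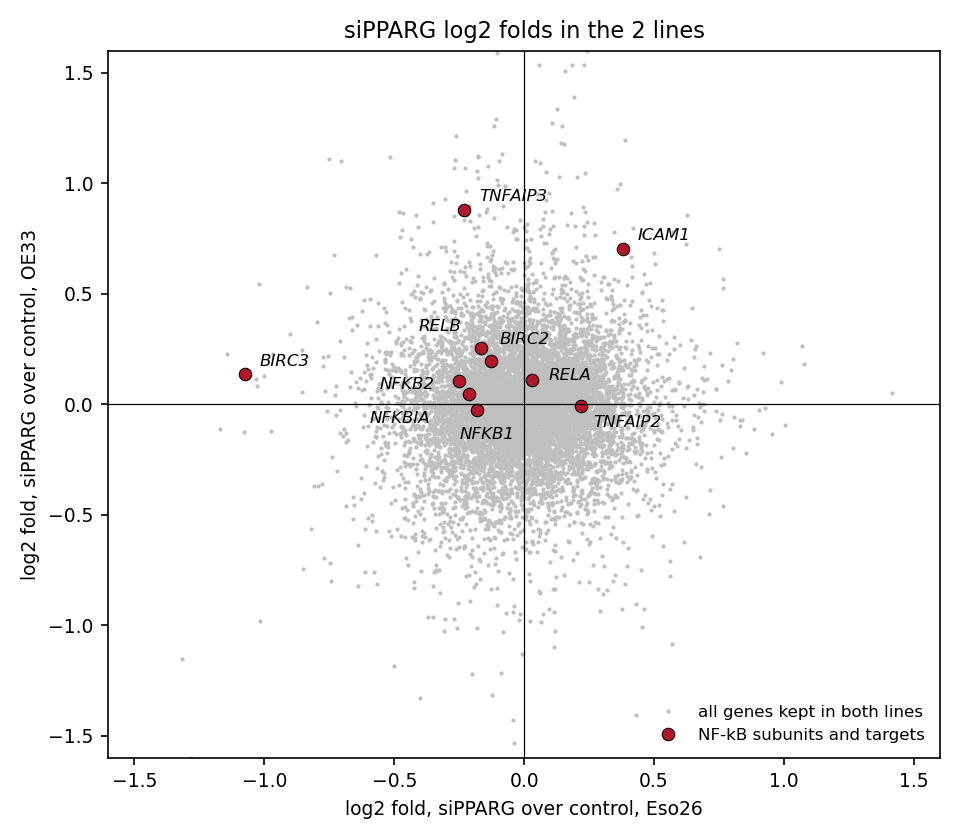
Log2 fold of siPPARG over control in Eso26 (x axis) and OE33 (y axis), 1 point per gene, for the 9588 genes kept in both lines (grey; 25 lie outside the plotted range) and the 10 NF-kB genes (red, named). BIRC3 stands far left at -1.07 with OE33 near 0, TNFAIP3 high at 0.88 with Eso26 slightly below 0, and ICAM1 to the upper right.

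The only test of siPPARG these libraries allow is for an effect common to both lines, in a model with 1 term for line and 1 for siRNA, which leaves 1 residual degree of freedom. edgeR's quasi-likelihood test called 0 of the 10 genes at an adjusted p under 0.05 and 0 of 11382 genes overall (0.0%), with 574 genes at an unadjusted p under 0.05; DESeq2 called 13 genes and limma-voom 0, and none of these were among the 10. The nearest was ICAM1, at a fitted log2 fold of 0.58, higher in siPPARG in both lines, with an unadjusted p of 0.00756 and an adjusted p of 0.941 by edgeR's quasi-likelihood test. Its adjusted p ranged from 0.217 upward, to nearly 1, over the alternatives run. TNFAIP3 (fitted log2 fold 0.39, adjusted p 0.948) and BIRC3 (-0.44, adjusted p 0.947) had effects of opposite sign in the lines, which this edgeR fit counts as spread. PPARG itself, at a fitted log2 fold of -1.67, was not called by this edgeR test either, and its knockdown was not detectable in Eso26. A count of 0 in this fit therefore does not show that siPPARG had no effect.

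The larger contrast for these genes was between the lines. In the controls, 8 of the 10 were past 2-fold higher in OE33 than in Eso26, where 21.5% of 11211 kept genes stood, and 0 of 10 were past 2-fold lower, against 16.3%; in either direction 8 of 10 were past it, against 37.8%. The log2 fold was above 0 for 9 of the 10 and below 0 for 1, against 50.9% and 49.1% of kept genes, and the interval lay above 1 for 9 and below 1 for 0, against 45.7% and 43.7%. The median log2 fold of OE33 control over Eso26 control was 2.62 for the 10 genes and 0.03 for all kept genes. On a scale common to the 4 libraries, both OE33 libraries lay above both Eso26 libraries for 9 of the 10 genes, against 44.8% of the 11382 genes in the fit, and below them for 0, against 42.5%. NFKB1 was the gene for which they overlapped.

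**Figure D3:**
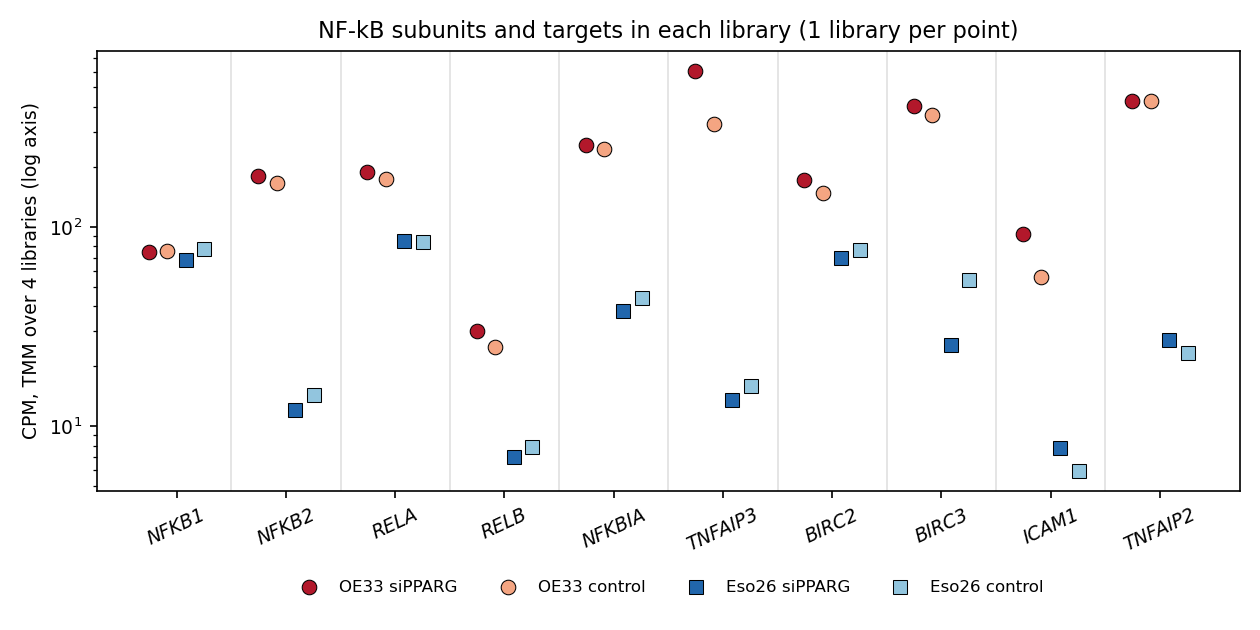
Level of each of the 10 genes in each of the 4 libraries, as CPM scaled over all 4 libraries (log axis), 1 point per library. OE33 libraries (circles) lie above Eso26 libraries (squares) for every gene but NFKB1; levels are comparable between libraries within a gene and not between genes, since lengths are not corrected for.

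Among the subunit genes, those of the non-canonical arm differed most between the lines, and NFKB1 did not differ detectably. NFKB2, with 2756 counts in OE33 control and 334 in Eso26 control, was 11.5-fold higher in OE33 control (interval 10.3 to 13.0). RELB, with 414 counts in OE33 control and 182 in Eso26 control, was 3.18-fold higher (interval 2.67 to 3.81). RELA was 2.07-fold higher in OE33 control (interval 1.95 to 2.19), with 2869 counts there and 1939 in Eso26 control. NFKB1, with 1253 counts in OE33 control and 1788 in the deeper Eso26 control, had a ratio of 0.981 (interval 0.912 to 1.05). So the genes of p100 and RelB stood well apart between the lines while the gene of p105 and p50 was level.

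The inhibitor and target genes were all higher in OE33 control. TNFAIP3 had the widest difference, 20.5-fold (interval 18.5 to 22.9), with 5428 counts in OE33 control and 370 in Eso26 control, and NFKBIA was 5.62-fold higher (interval 5.24 to 6.02), with 4076 and 1015. TNFAIP2 was 18.3-fold higher (interval 16.8 to 20.0) and ICAM1 9.33-fold (interval 7.80 to 11.2) in OE33 control. BIRC3 was 6.75-fold higher in OE33 control (interval 6.35 to 7.18), whereas its neighbour BIRC2 was 1.95-fold higher (interval 1.83 to 2.07). The interferon list moved with these genes here too. Of its 13 genes that reached 5 CPM in both controls, 11 were past 2-fold higher in OE33 control, with a median log2 fold of 1.76. Over all genes kept in at least 1 control, 21.5% were past 2-fold higher. The part of the interferon list in the difference was not tested. The low counts of ICAM1, RELB, NFKB2 and TNFAIP3 in Eso26 make their siPPARG ratios the least precise there.

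Over the siPPARG and control libraries of each line, edgeR's quasi-likelihood test of the line coefficient in the same fit called 9 of the 10 genes, against 72.3% of 11382 genes. All 9 were higher in OE33, where 36.3% of genes were called higher and 35.9% lower. The libraries of a line differ in siRNA and are not replicates of a condition, so these p-values rest on the treatment effects being alike in both lines. By this edgeR test the fitted log2 fold was 3.67 for NFKB2 (adjusted p 4.66e-06), 4.05 for TNFAIP2 (adjusted p 2.93e-06) and 4.88 for TNFAIP3 (adjusted p 1.86e-05). The lowest fitted values among those called were those of RELA, 1.06 (adjusted p 0.000279 by edgeR), and BIRC2, 1.09 (adjusted p 0.000421 by edgeR). NFKB1 was not called, with a fitted log2 fold of 0.02 and an adjusted p of 0.909 by edgeR.

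The rest of the pathway was described through 6 lists of genes, of which the list of other NF-kB target genes had the median farthest from 0 in each line. Of its 21 genes in the tables, 15 were kept in OE33. Past 1.5-fold, 5 of these were higher in siPPARG, against 3.26% of all kept genes, and 1 was lower, against 2.38%. The median log2 fold was 0.29, against -0.01 over all. The list did not move as 1, since 10 genes had a log2 fold above 0 and 5 below, against 48.7% and 51.3%. The interval lay above 1 for 9 and below 1 for 4, against 24.8% and 25.8%. The gene past 1.5-fold lower was IL1B, with 92 counts in siPPARG and 130 in control (ratio 0.662, interval 0.501 to 0.871). Its log2 fold of -0.585 lies at the threshold, so whether it is past 1.5-fold depends on the scaling. DESeq2's size factors shifted log2 folds in OE33 up by a median of 0.016. PTGS2, which encodes cyclooxygenase 2, had 2101 counts in OE33 siPPARG and 840 in control (2.34-fold, interval 2.16 to 2.54), above the neutrophil chemokine genes CXCL2 (2.28-fold) and CXCL8 (2.07-fold). In Eso26 all 7 kept genes of this list had a log2 fold below 0, against 51.4% of all kept genes, with a median of -0.39. Of the 7, 1 was past 1.5-fold lower, against 1.15% of all kept genes. That was the chemokine gene CCL20, which reached 5 CPM in control but not in siPPARG, with 92 counts in siPPARG and 153 in control (ratio 0.654, interval 0.499 to 0.852). At a log2 fold of -0.603 its place past 1.5-fold also depends on the scaling. Library totals alone shifted log2 folds in Eso26 up by a median of 0.045. IER3, an early response gene, followed with 324 counts in Eso26 siPPARG and 518 in control (ratio 0.680), and PLAU, which encodes urokinase, with 629 and 924 (ratio 0.740). Between the controls, 10 of the 16 kept genes of the list reached 5 CPM in 1 of the lines only, 9 of them in OE33 and CCL20 in Eso26, and a gene kept in this way had to differ. Of the 6 that reached it in both controls (CD83, IER3, IL32, LIF, PLAU and SOD2), 4 were past 2-fold higher in OE33 and 0 were lower. Over all kept genes the shares were 21.5% and 16.3%, and these include genes that reached 5 CPM in 1 control only. All 10 NF-kB subunit and target genes reached 5 CPM in both controls, and they too were set against that wider background.

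Most kept receptor and adaptor genes were within 1.5-fold of control in both lines, with MYD88 and TLR3 as exceptions. Of 17 kept in OE33, 2 were past 1.5-fold higher, against 3.26% of all kept genes, and 0 lower, against 2.38%. Of 18 kept in Eso26, 1 was higher, against 1.25%, and 0 lower, against 1.15%. MYD88, the adaptor of Toll-like and interleukin 1 receptors, was higher in both lines, with 1252 counts in OE33 siPPARG and 718 in control (1.63-fold, interval 1.49 to 1.79), and 748 in Eso26 siPPARG and 482 in control (1.69-fold, interval 1.502 to 1.90). The other in OE33 was TLR3, the endosomal receptor for double-stranded RNA, with 279 counts in siPPARG and 155 in control (1.68-fold, interval 1.38 to 2.06). None of the 10 kinase genes kept in OE33 or the 9 kept in Eso26 passed 1.5-fold, against 5.64% and 2.4% of all kept genes. IKBKE stood at 1.30-fold in OE33 (interval 1.16 to 1.46), and MAP3K14, the gene of NIK, at 0.785 in Eso26 (interval 0.693 to 0.887). MAP3K14 was lower in OE33 control than in Eso26 control, with 221 and 622 counts and a ratio of 0.497 (interval 0.424 to 0.581). Of the 9 kinase genes at 5 CPM or more in both controls, 2 were past 2-fold higher in OE33. MAP3K14 was the 1 past it lower. Of the 16 receptor and adaptor genes at that level in both controls, 3 were past 2-fold higher and 3 lower. Over all genes kept in at least 1 control the shares were 21.5% and 16.3%.

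Among the other Rel and IkB genes, REL, the c-Rel subunit gene, was lower in Eso26 siPPARG, with 319 counts against 556 in control (ratio 0.624, interval 0.542 to 0.717). It was the 1 of 5 kept genes past 1.5-fold there, against 2.4% of all kept genes. In OE33, 0 of 5 passed 1.5-fold, against 5.64% of all kept genes. There NFKBIZ, an inducible nuclear IkB gene, had 2343 counts in siPPARG and 1713 in control (1.28-fold, interval 1.20 to 1.36). All 5 had a log2 fold above 0 in OE33 control over Eso26 control, against 50.9% of all kept genes. Of the 4 that reached 5 CPM in both controls, 2 were past 2-fold higher, led by NFKBIZ at a log2 fold of 2.29. Over all genes kept in at least 1 control the share was 21.5%. Of 11 kept genes of ubiquitin editing and other brakes, 1 was past 1.5-fold in OE33 and 0 in Eso26, against 5.64% and 2.4% of all kept genes. That gene was OTULIN, a deubiquitinase for linear chains, with 523 counts in OE33 siPPARG and 848 in control (ratio 0.577, interval 0.516 to 0.644); TNIP1, a binding partner of A20, stood at 1.35-fold (interval 1.31 to 1.40). Of 7 kept survival and IAP genes 0 passed 1.5-fold in either line, against the same 5.64% and 2.4%. CFLAR, a caspase-8 inhibitor gene, stood at 1.36-fold in OE33 (interval 1.29 to 1.43) and BIRC6 at 0.788 in Eso26 (interval 0.742 to 0.837). Between the controls, 4 of the 11 brake genes and 1 of the 7 survival genes were past 2-fold higher in OE33. In both lists 0 were past it lower. The shares over all genes kept in at least 1 control were 21.5% and 16.3%.

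**Figure D4:**
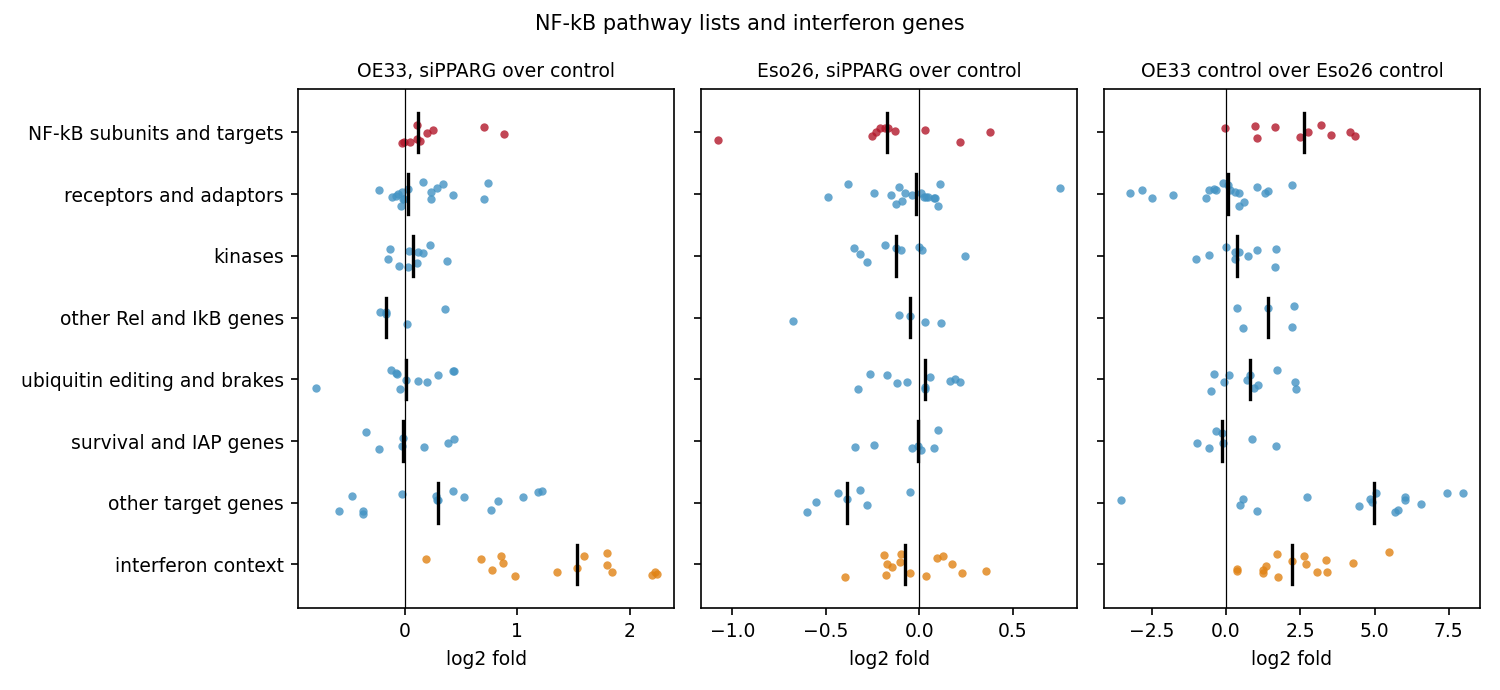
Log2 fold of each kept gene (points, jittered vertically) in the 10 NF-kB genes, 6 pathway lists and the interferon list, for siPPARG over control in OE33 (left) and Eso26 (middle) and for OE33 control over Eso26 control (right); x scales differ between panels and black bars are list medians. Other target genes have a median of 0.29 in OE33 and -0.39 in Eso26, and the interferon list 1.53 and -0.07. In the right panel the bars include genes kept through 1 line only, many of which lie far from 0.

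For the gene with the largest siPPARG log2 fold in each line, the genes whose centred log2 CPM lay nearest over the 4 libraries were found among the 9588 genes kept in both lines, by Euclidean distance. Nearest to TNFAIP3 were CCN1 (distance 0.23), APOL1 (0.40) and SAMD9 (0.44). CCN1 had 3583 counts in OE33 siPPARG and 1561 in OE33 control, and 103 in Eso26 siPPARG and 120 in Eso26 control. Nearest to BIRC3 was AREG, the gene of the EGF-receptor ligand amphiregulin, at a distance of 0.05. AREG had 11230 counts in OE33 siPPARG and 9920 in OE33 control, and 907 in Eso26 siPPARG and 2015 in Eso26 control, so that, like BIRC3, it differed little between the OE33 libraries and was low in Eso26 siPPARG. CLIP4 (distance 0.25) and QKI (0.27) came next. With 4 libraries, likeness is mostly set by the difference between the lines.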

How the data were processed

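RNA-seq was measured in 4 libraries. The authors deposited un-normalised read counts, 1 whole number per gene and condition. Per the submitters' processing notes the build was hg19 and the tools included STAR, Trim Galore, Bowtie, MACS2 and Picard, with no roles given. Which program counted the reads, with what strand setting and treatment of multi-mapping reads, is not stated. Of the 37533 rows in each table, 40 repeat an identifier and were summed. The PPARG peak lists are on hg19, for which no annotation was used here, so they were not analysed.

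Within a line, counts were scaled with TMM in edgeR 4.0.16 under R 4.3.3. The log2 fold is the difference of log2 CPM with a prior count of 2; the controls were compared with TMM over the 4 libraries. A gene was kept if either library compared reached 5 CPM. All 10 genes passed in all comparisons. A fold is the ratio of scaled counts with its exact conditional binomial (Clopper-Pearson) 95% interval, for counting error only. The thresholds were 1.5-fold within a line and 2-fold between controls. Treatment and line were tested with edgeR's quasi-likelihood test on the 4 libraries, Benjamini-Hochberg adjusted over 11382 genes. DESeq2 1.42.0 and limma 3.58.1 were alternatives. The code was first run on simulated data, in which siRNA effects were alike in both lines. That run therefore does not speak to the spread in the real fit.

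The 10 genes, the lists and the tests were chosen with earlier results of these data known. Named beyond the 10 were, per list and line, up to 3 kept genes with the largest absolute log2 fold, and the 3 nearest in pattern. MAP3K14, NFKBIZ, IL1B, TLR4, TRAF1 and the 6 other target genes given between the controls were named after their values were seen.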

Additional observations from a re-analysis of the deposited data

Results flagged for a closer look

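In 7 of the 10 genes the siPPARG log2 fold had opposite signs in OE33 and Eso26, against 49.0% of the 9588 genes kept in both lines; with 1 library per condition the difference was not tested. OE33 minus Eso26 was 1.21 for BIRC3, 1.11 for TNFAIP3, 0.42 for RELB, 0.36 for NFKB2, 0.32 for BIRC2 and 0.26 for NFKBIA, and -0.23 for TNFAIP2. For RELB in Eso26, NFKBIA in OE33 and TNFAIP2 in OE33 the counting interval of the ratio includes 1, so their sign in that line is not settled. For NFKB2, TNFAIP3 and BIRC2 in Eso26, whether the interval stays below 1 depends on the scaling.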

How the results depend on the processing

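Within the lines, TNFAIP3 and ICAM1 in OE33 and BIRC3 in Eso26 stayed past 1.5-fold with DESeq2's size factors, with library totals alone, with a filter of 1 CPM, with no filter, with a prior count of 0.5 and, added after seeing the data, with TMM over the 4 libraries. At 2-fold, 0 of the 10 genes were past the threshold in OE33. Over all genes the count past 1.5-fold in OE33, 594 (343 higher and 251 lower), became 1042 at 1 CPM, 3692 with no filter (1557 higher and 2135 lower) and 154 at 2-fold (110 higher and 44 lower). In Eso26 the 251 (131 higher and 120 lower) became 633 at 1 CPM (412 higher and 221 lower), 3492 with no filter (2342 higher and 1150 lower) and 21 at 2-fold (6 higher and 15 lower). Between the controls 4233 genes past 2-fold became 7421 with no filter and 6653 at 1.5-fold. The common treatment effect, 0 genes by edgeR's quasi-likelihood test, became 13 with DESeq2 and 64 with no filter, PPARG among the latter; the cause was not tested, and 0 of the 10 genes were called under any of these. The line test called 9 of the 10 genes in each of the 4 alternatives. The 4-library fit pairs siPPARG with control within each line through its line term. No pairing by replicate was possible, because the labels give no replicate numbers and each condition has 1 library. With 1 library per condition none could be left out. In Eso26, depth limits ICAM1 and RELB most, with 139 to 182 counts.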
